A study of Mus musculus with 6 samples.

Results

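The genes described here encode 5 protein complexes that bring secretory and membrane proteins into the endoplasmic reticulum (ER) and make their first modifications: the signal recognition particle (SRP) with its receptor, the Sec61 translocon with its partners, the translocon-associated protein complex (TRAP), signal peptidase, and oligosaccharyltransferase. They were taken by symbol from a fixed list of 33 genes, and all 33 were found among the 23349 genes listed and passed the filter that left 12400 genes for testing. The cells are AtT-20 iPAM, a mouse corticotrope tumour line in which doxycycline raises PAM (peptidylglycine alpha-amidating monooxygenase, the enzyme that amidates the ends of peptides in the secretory pathway). In the induced group, 3 libraries came from cells given doxycycline at 4 micrograms per ml for 48 h. In the basal group, 3 libraries came from cells of the same line without doxycycline. Cells of both groups were grown in G418 and hygromycin. The question is which transcripts of a corticotrope change with more PAM. No doxycycline-treated cells without the inducible gene are among the samples, so doxycycline and raised PAM cannot be told apart. No label says whether each library had a culture of its own, or whether the line is 1 clone, so the p-values cover spread that may be technical.

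Most proteins bound for secretion carry a signal sequence that SRP recognises as it leaves the ribosome, and SRP then docks the ribosome at its receptor on the ER membrane. The chain passes through the Sec61 channel, with TRAP and other partners beside it, signal peptidase cuts the signal sequence off, and oligosaccharyltransferase moves a preassembled sugar tree from dolichol onto asparagines of the chain. In corticotropes the main client is pro-opiomelanocortin, the precursor of adrenocorticotropic hormone, which is N-glycosylated, and PAM itself is a membrane glycoprotein that enters by the same route.

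Levels are in TPM, transcript levels scaled to add up to 1000000 in each library, and libraries are named induced 1 to 3 and basal 1 to 3 after the columns. The labels state 16.6 M reads per library, and the values themselves carry no depth. Pam was at 507, 399 and 258 TPM in induced 1, 2 and 3, against 92.6, 82.8 and 66.9 TPM in basal 1, 2 and 3. All induced libraries were above all basal libraries, and Pam rose 4.80-fold, with a log2 difference of 2.21 and a limma adjusted p of 0.0210. An exact permutation test, two-sided, gave p = 0.1, and 3 libraries against 3 can go no lower. Without any 1 library other than induced 3, the Pam call was lost, with limma adjusted p between 0.0694 and 0.174. The 6 corticotrope markers added up to between 21511 and 30450 TPM in induced libraries and between 23089 and 32063 TPM in basal libraries, with Avpr1b, a vasopressin receptor, near 0. The 9 markers of other pituitary hormone cells added up to at most 3.33 TPM in induced and 4.93 TPM in basal libraries, with 3 of them at 0 throughout. The 4 fibroblast markers added up to between 1.33 and 1.76 TPM in induced libraries and between 2.57 and 4.03 TPM in basal libraries, with 2 at 0 throughout. Markers of leukocytes, endothelium and erythrocytes stayed below 1 TPM in sum, and in bulk RNA fewer cells of a type and less RNA per cell cannot be told apart.

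The libraries numbered 3 stood apart from the others in these genes. In 28 of the 33 genes (84.8%) the library numbered 3 was below the mean of the other libraries of its group in both groups, against 6176 of the 12400 genes tested (49.8%). The median shift was -0.63 on the log2(TPM + 1) scale in induced 3 and -0.31 in basal 3, against -0.10 and -0.08 over all genes tested. Every gene of Sec61, TRAP and signal peptidase was low in both, as were 9 of 10 oligosaccharyltransferase genes and 3 of 7 SRP genes. Tram1 had the lowest shifts, at -1.79 in induced 3 and -1.07 in basal 3, whereas Srp68 was higher in the libraries numbered 3, by 0.60 in induced 3 and 0.31 in basal 3. This shared shift widens the spread within each group. A fit with the column number as a block is given beside the fit without it wherever the call differs. The block was run under a rule on correlations between libraries over all genes tested, not because of the shift in these 33. The block removes what libraries of the same number share. No label pairs the libraries, and whether numbers 1 and 2 pair as named could not be told.

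Across the 33 genes the shift went with base composition. The median GC content of the protein-coding transcripts was 48.2% for the 33 genes and 51.4% for the 11151 tested genes with a value. Over the 33 genes, GC content and the shift of the libraries numbered 3 had a Spearman rho of 0.61 and a Pearson r of 0.58. GC content and the difference between induced and basal libraries had a rho of 0.37, and the length of the longest transcript had a rho of -0.30 with the shift and of -0.41 with the difference. These are correlations across genes that share the same 6 libraries, genes are not independent replicates, and the part of base composition in the results was not tested. The same correlations were not computed over all genes tested, so they are not known to be particular to the 33. GC content and length are those of annotated transcripts, whereas the libraries were made with an amplicon kit.

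**Figure D1:**
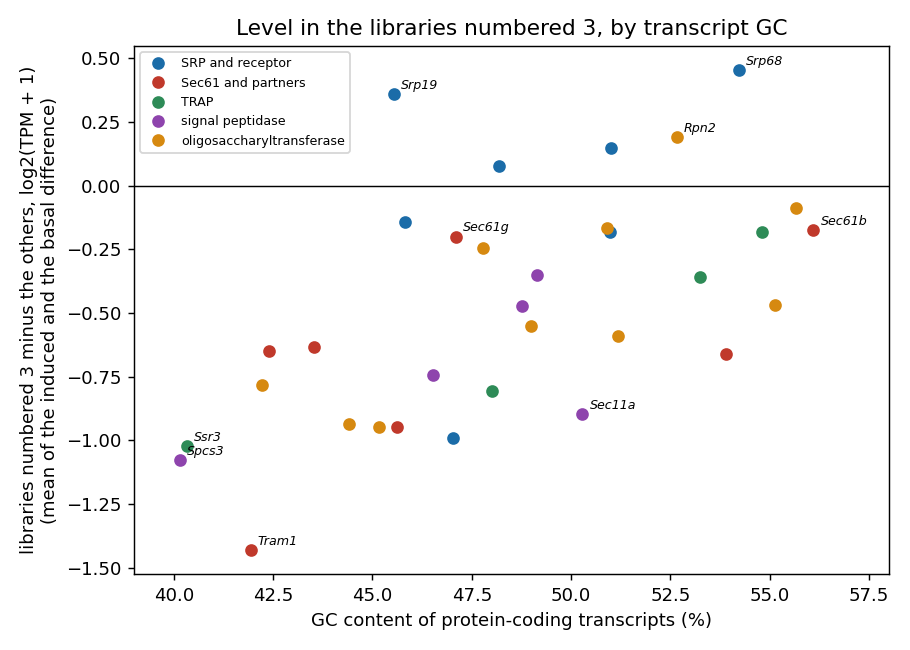
Each point is 1 of the 33 genes, coloured by complex, with the GC content of its transcripts in percent on the horizontal axis and, on the vertical axis, how far the libraries numbered 3 lay from the other libraries of their group on the log2(TPM + 1) scale, averaged over the induced and the basal group. Most points lie below 0, the AT-rich Tram1, Spcs3 and Ssr3 the furthest, whereas Sec61b and Sec61g lie closer to 0 and Srp68 and Srp19 above it.

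Between induced and basal libraries most of the 33 genes did not differ beyond their spread, and no complex was called as a whole. With the block, 18.2% of the 33 were called in either direction, below the 22.3% of all genes tested. Without the block, 0 of the 33 passed the limma test at an adjusted p of 0.05, against 148 of 12400 genes, 1.19%, in either direction. On the deposited scale those 148 were 16 higher and 132 lower. Quantile normalization gave 28 higher and 93 lower, and adding the offset of the authors' deposited table from DESeq2 gave 2352 higher and 124 lower, since that offset shifts every gene by 0.43 and moves the median of all genes to 0.39. The offset is not a value the authors give. It was estimated here as the median gap between their DESeq2 log2 fold changes and the log2 differences of this fit. Only genes of that table entered it, and the table is limited to 195 genes. At an unadjusted p under 0.05, 4 of the 33 were higher (Sec61b, Sec61g, Sec11c and Rpn1), against 5.53% of all genes tested, and 0 were lower, against 9.56%. With the block, 5 passed as higher (Sec61b, Sec61g, Sec11c, Spcs2 and Rpn1), against a background of 8.23%, and Srp72 passed as lower, against 14.0%. In 5 genes all induced values lay above all basal values (Sec61b, Sec61g, Ssr4, Sec11c and Rpn1), against 9.04% of all genes, and Srp72 lay entirely below, against 12.6%.

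The median log2 difference of the 33 was 0.10, with 22 positive (66.7%), against -0.04 and 44.9% positive over all genes tested. That count rested on single libraries: 12 were positive without induced 1 and 29 without basal 1. The share over all genes moved as well, to 50.6% positive without basal 1. By complex the median log2 difference was 0.08 for SRP and its receptor, 0.03 for Sec61 and its partners, 0.11 for TRAP, 0.18 for signal peptidase and 0.08 for oligosaccharyltransferase. The medians for Sec61, TRAP and oligosaccharyltransferase turned negative without basal 3 (-0.18, -0.08 and -0.06) and without induced 1 (-0.12, -0.05 and -0.06), and that of Sec61 also without induced 2 (-0.03). The median of signal peptidase stayed positive but lay between 0.07 without induced 1 and 0.46 without induced 3, and that of SRP lay between 0.03 without induced 3 and 0.14 without basal 1. Column number 1, 2 or 3 was then left out of both groups in turn and the block kept. The same 3 of the 33 were called each time, all higher: Sec61b, Sec61g and Sec11c. Over all genes those fits called 15.4%, 15.7% and 15.3% in either direction. Of these 1907, 1943 and 1899 genes, 571, 712 and 725 were higher.

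**Figure D2:**
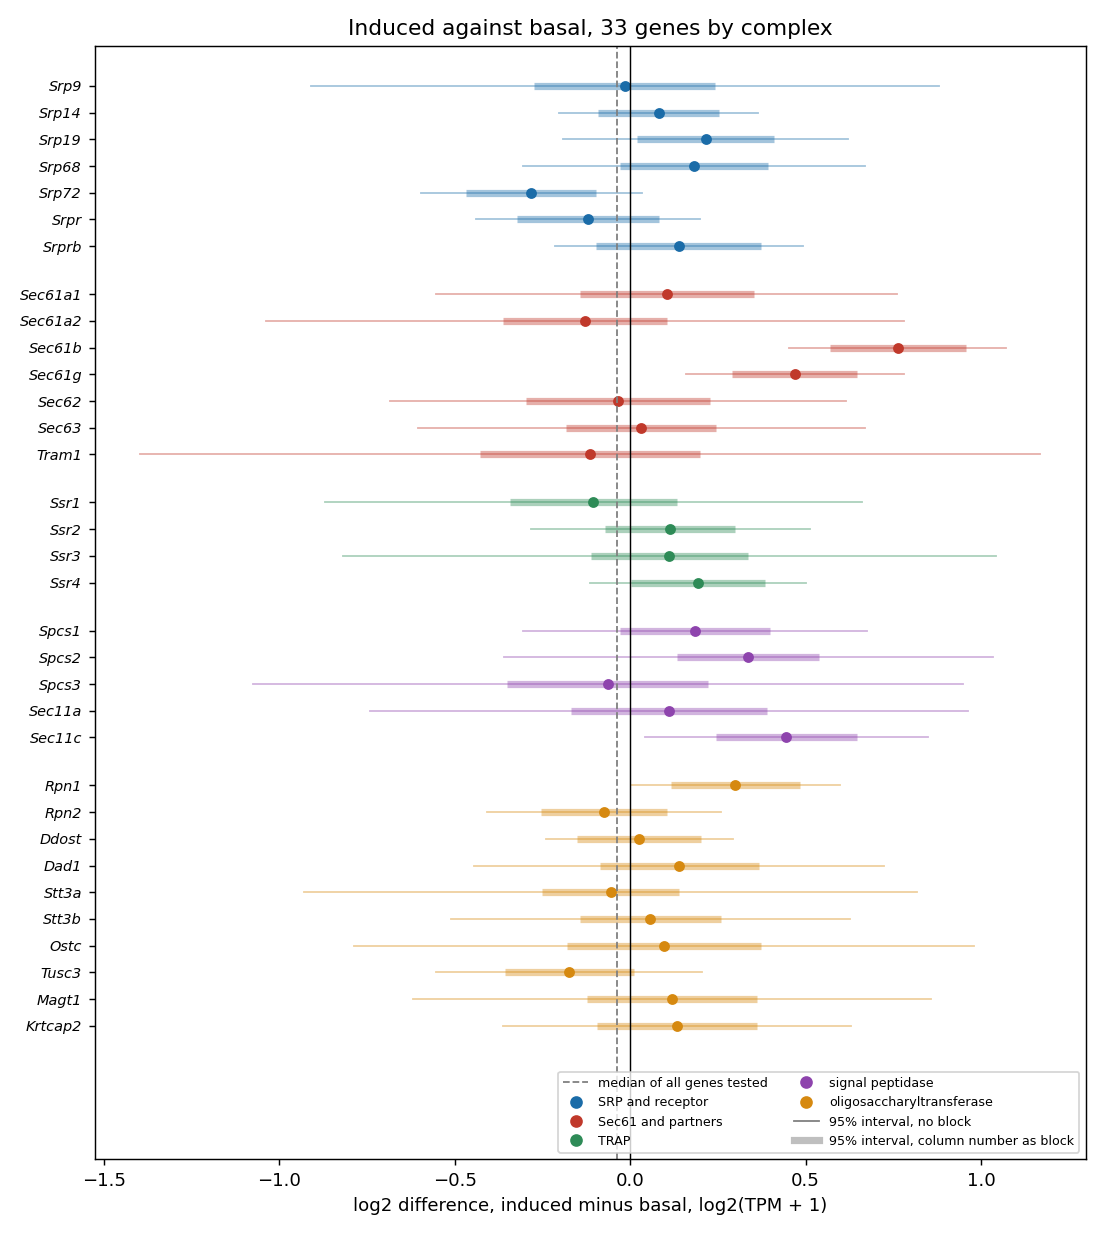
For each of the 33 genes, grouped and coloured by complex, the point is the log2 difference, induced minus basal, on the log2(TPM + 1) scale; the thin bar is its 95% interval without a block and the thick bar the interval with the column number as a block, over 3 libraries per group. The dashed line is the median of all genes tested (-0.04); Sec61b stands furthest to the right at 0.76 and Srp72 furthest to the left at -0.28.

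In SRP, the first complex of the pathway, Srp72 was the 1 gene of 7 called with the block. It was called lower, as were 14.0% of all genes tested, so the count is near that share. Srp72 pairs with Srp68 to form the main protein scaffold on the SRP RNA. Srp72 was at 128, 114 and 110 TPM in induced 1, 2 and 3, against 158, 138 and 132 TPM in basal 1, 2 and 3. Every induced library was below every basal library, at 0.821 of the basal mean (117 ± 9.22 TPM in induced and 143 ± 13.4 TPM in basal libraries, SD, n = 3 each). The log2 difference was -0.28, with a 95% interval of -0.60 to 0.03 and a limma adjusted p of 0.393 without the block. With the block the interval was -0.47 to -0.10 and the limma adjusted p 0.0379, a call that was lost when any column number was left out. Its sign also depends on the scale: with the offset of the authors' deposited table from DESeq2 the log2 difference was 0.15.

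The partner Srp68 did not follow Srp72, and no other gene of SRP or its receptor was called with or without the block. Srp68 was at 142, 128 and 205 TPM in induced libraries and 133, 121 and 157 TPM in basal libraries, a log2 difference of 0.18. Srp19, which lets the signal-binding subunit dock on the SRP RNA, was at 120, 125 and 158 TPM in induced and 111, 101 and 135 TPM in basal libraries, a log2 difference of 0.22 with an interval of -0.19 to 0.62. In both genes the groups overlapped and the library numbered 3 was the highest of its group. Srp9 and Srp14, the pair that slows translation until docking, gave log2 differences of -0.02 and 0.08. Srp9 was at 123, 147 and 58.7 TPM in induced and 129, 120 and 71.3 TPM in basal libraries, so that the libraries numbered 3 set its spread. Srp14 was at 441, 452 and 495 TPM in induced and 402, 444 and 467 TPM in basal libraries. Of the receptor, Srpr, the GTPase that meets SRP, was at 85.3, 76.9 and 90.8 TPM in induced and 100, 84.3 and 91.1 TPM in basal libraries, a log2 difference of -0.12. Srprb, its membrane anchor, was at 45.9, 49.1 and 40.2 TPM in induced and 46.0, 38.2 and 38.3 TPM in basal libraries, a log2 difference of 0.14, with overlapping groups.

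In the Sec61 channel all induced libraries lay above all basal libraries for both small subunits, whereas the groups overlapped for the pore-forming subunits. Without the block the interval of Sec61a1, -0.55 to 0.76, overlapped that of Sec61b. A difference between subunits was tested only by their ratios within a library, where the Benjamini-Hochberg adjusted exact permutation p was 0.5. With 3 libraries per group the exact permutation p cannot fall below 0.1, so that test could not have passed 0.05 and does not decide the question. Sec61b encodes the beta subunit, a small tail-anchored protein beside the pore. Sec61b was at 337, 306 and 267 TPM in induced 1, 2 and 3, against 180, 182 and 171 TPM in basal 1, 2 and 3. The lowest induced library was well above the highest basal library, at 303 ± 35.0 TPM in induced and 178 ± 6.31 TPM in basal libraries (SD, n = 3 each), 1.71-fold. The log2 difference was 0.76 (SE 0.13, 95% interval 0.45 to 1.07), with a limma adjusted p of 0.0515 without the block, just short of the threshold, and 6.5e-04 with it. Without the block, leaving out induced 3 gave a limma adjusted p of 0.0250, and leaving out any other library gave between 0.178 and 0.265.

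Sec61g, the gamma subunit that clamps the pore from the side, was at 380, 345 and 323 TPM in induced 1, 2 and 3, against 269, 263 and 226 TPM in basal 1, 2 and 3. The groups did not overlap, and the means were 349 ± 29.1 TPM in induced and 252 ± 23.2 TPM in basal libraries (SD, n = 3 each), 1.38-fold. The log2 difference was 0.47 (SE 0.13, interval 0.16 to 0.78), with a limma adjusted p of 0.153 without the block and 0.00402 with it. Sec61a1, which forms the pore itself, was at 257, 212 and 125 TPM in induced and 205, 186 and 145 TPM in basal libraries, a log2 difference of 0.10 with an interval of -0.55 to 0.76. Its paralog Sec61a2 was at 42.6, 32.5 and 17.1 TPM in induced and 45.6, 32.3 and 21.3 TPM in basal libraries, a log2 difference of -0.13. For both the libraries numbered 3 were the lowest of their group and the groups overlapped.

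The partners of the channel were not called in either fit. Sec62 and Sec63 serve proteins that enter after translation and, through Sec63, recruit the chaperone BiP. Sec62 was at 49.1, 53.4 and 30.3 TPM in induced and 57.6, 44.1 and 33.7 TPM in basal libraries, and Sec63 at 46.8, 41.1 and 28.0 TPM in induced and 49.0, 37.8 and 27.3 TPM in basal libraries. Their log2 differences were -0.03 and 0.03. Tram1, a membrane protein that touches nascent chains as they leave the pore, was at 239, 190 and 60.9 TPM in induced and 219, 174 and 92.3 TPM in basal libraries. Its log2 difference was -0.11 with an interval of -1.40 to 1.17, the widest of the 33, and the libraries numbered 3 were its lowest values.

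**Figure D3:**
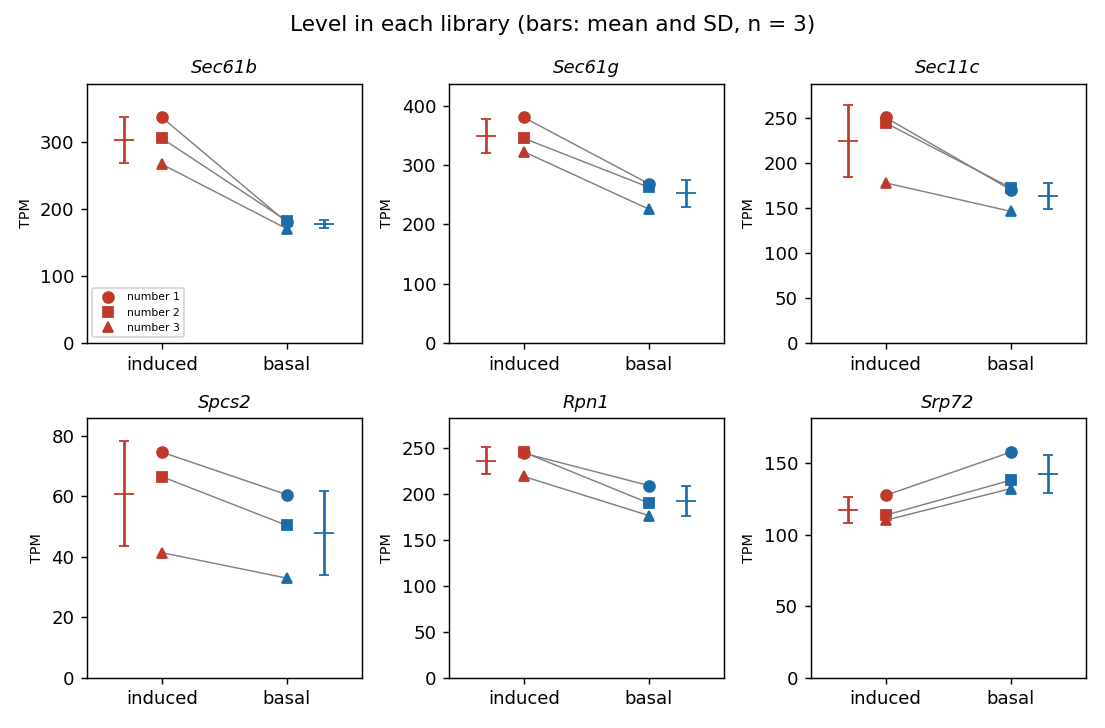
Level in TPM in each library of the 6 genes called with the column number as a block, induced on the left in red and basal on the right in blue; circles, squares and triangles are the libraries numbered 1, 2 and 3, lines join equal numbers, and the bars beside the points are the mean and SD of 3 libraries. All lines run down from induced to basal except those of Srp72, and only in Spcs2 do the 2 groups overlap.

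The promoters were searched for motifs tied to ER stress. As background, the ER stress response element is the motif CCAAT, 9 bases of any kind and CCACG, and a second form is ATTGG, 1 base of any kind and CCACG; they are read by the stress factors ATF6 and XBP1 with the CCAAT-binding factor. A window of 250 bases before to 50 after the start (RefSeq, GRCm38.p6) was found for 24 of the 33 genes, with Sec61a1 and Sec11c among the 9 that had no entry, and motifs were searched on both strands. A gene counted if any of its windows held the motif. The share of all promoters instead counts each window once, so it is not like for like with the shares of genes. CCAAT was in 14 of these 24, against 43.7% of 9159 tested genes and 37.4% of all 32851 promoters, and CCACG in 16 of 24, against 53.3% of tested genes and 32.8% of all promoters. The full first element was in 0 of 24, against 0.164% of tested genes and 0.119% of all promoters. The second form, which contains CCACG and, on the other strand, CCAAT, was in Krtcap2 of oligosaccharyltransferase, against 0.0873% of tested genes and 0.0365% of all promoters. Shown 5′ to 3′ on the gene's strand are the genes with the most positive differences in Sec61, the gene called lower, and Krtcap2, with capitals marking CCAAT or CCACG on either strand: Sec61b at chr4:47474411-47474710 (plus strand), Sec61g at chr11:16508435-16508734 (minus strand), Srp72 at chr5:76974451-76974750 (plus strand) and Krtcap2 at chr3:89246223-89246522 (plus strand).
Sec61b: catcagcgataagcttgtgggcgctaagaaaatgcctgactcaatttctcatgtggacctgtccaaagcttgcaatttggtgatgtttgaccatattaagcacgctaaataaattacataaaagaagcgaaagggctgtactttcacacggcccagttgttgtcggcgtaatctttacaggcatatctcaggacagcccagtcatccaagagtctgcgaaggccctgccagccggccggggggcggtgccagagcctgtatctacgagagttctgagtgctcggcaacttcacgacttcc
Sec61g: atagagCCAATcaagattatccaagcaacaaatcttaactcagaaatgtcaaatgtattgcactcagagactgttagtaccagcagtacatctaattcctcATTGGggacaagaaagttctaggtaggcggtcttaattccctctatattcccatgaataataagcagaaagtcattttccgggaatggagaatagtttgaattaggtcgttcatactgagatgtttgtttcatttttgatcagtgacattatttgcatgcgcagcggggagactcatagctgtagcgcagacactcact
Srp72: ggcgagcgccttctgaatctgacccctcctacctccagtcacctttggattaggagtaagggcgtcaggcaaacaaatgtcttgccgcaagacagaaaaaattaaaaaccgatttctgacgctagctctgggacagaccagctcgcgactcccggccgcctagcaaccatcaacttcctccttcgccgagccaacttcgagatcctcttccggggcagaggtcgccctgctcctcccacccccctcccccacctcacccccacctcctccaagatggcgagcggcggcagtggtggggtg
Krtcap2: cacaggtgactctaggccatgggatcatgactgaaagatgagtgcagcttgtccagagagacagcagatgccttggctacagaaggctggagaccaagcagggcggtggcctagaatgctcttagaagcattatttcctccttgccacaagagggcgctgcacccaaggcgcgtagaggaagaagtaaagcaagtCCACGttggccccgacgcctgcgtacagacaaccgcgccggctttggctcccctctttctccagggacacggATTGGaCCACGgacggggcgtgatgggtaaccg
Sec61b and Srp72, at the opposite ends of the range of differences, both lack CCAAT and CCACG in this window, and Sec61g holds CCAAT on both strands. Spcs2 and Rpn1, also called higher with the block, hold both motifs in windows not printed here. Counting both strands, Spcs2 has 1 CCAAT and 1 CCACG, and Rpn1 has 1 CCAAT and 2 CCACG. A match is a description of letters and not a binding site. By the annotation (GENCODE vM21, the mm10 build), Sec61b lies at chr4:47474658-47483242 on the plus strand, Sec61g at chr11:16500530-16508484 on the minus strand and Srp72 at chr5:76974683-76999937 on the plus strand. No exon of another gene overlaps theirs, whereas an exon of Trim46 on the opposite strand overlaps Krtcap2, and the kit's use of strand is not stated in the labels. Krtcap2 lies at chr3:89245966-89249906 on the plus strand, so the window shown for it lies inside the annotated gene. For Krtcap2 only a window that held the second form was shown.

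Within a library, the ratio of 2 genes does not depend on the library's scale, so subunits were also set against each other. The log2 ratio of Sec61b to Sec61a1 was 0.39, 0.53 and 1.09 in induced 1, 2 and 3, against -0.18, -0.03 and 0.23 in basal 1, 2 and 3. All induced ratios were above all basal ratios, with a difference of 0.66 and an exact two-sided permutation p of 0.1, the smallest possible. The log2 ratio of Sec61g to Sec61a1 was 0.56, 0.70 and 1.36 in induced and 0.39, 0.50 and 0.64 in basal libraries, a difference of 0.37 with overlapping groups and an exact permutation p of 0.2. That of Sec61a2 to Sec61a1 differed by -0.24 (exact permutation p = 0.3). All 6 ratios tested had a Benjamini-Hochberg adjusted exact permutation p of 0.5, and the ratios also moved with the libraries numbered 3, which had the highest Sec61b and Sec61g ratios in each group.

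**Figure D4:**
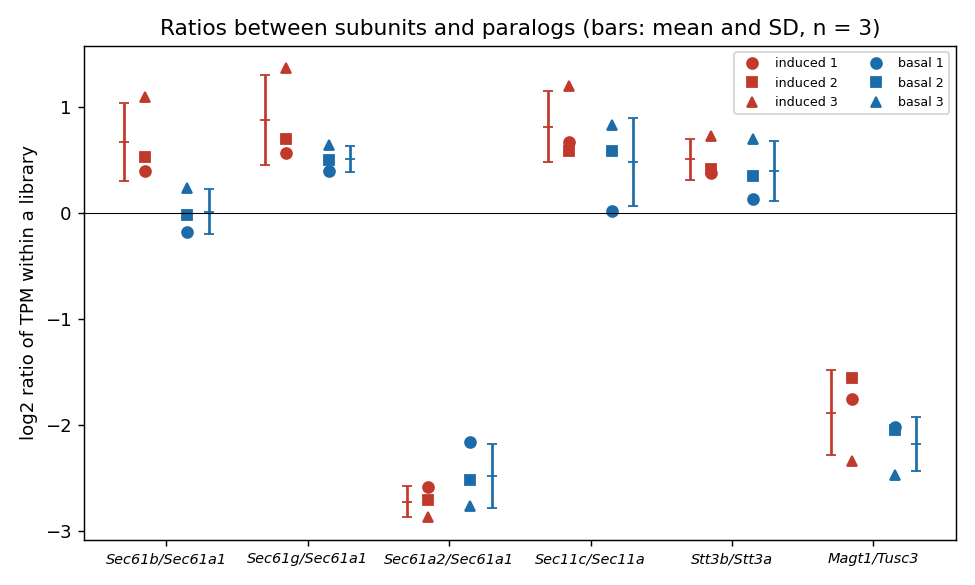
Log2 ratio of TPM between subunits or paralogs of a complex within each library, with induced libraries in red on the left of each pair and basal libraries in blue on the right; bars are the mean and SD of 3 libraries. The groups are apart only for Sec61b over Sec61a1, where induced libraries lie between 0.39 and 1.09 and basal libraries between -0.18 and 0.23.

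TRAP, a complex of 4 membrane proteins that helps weaker signal sequences open the channel, had no gene called in either fit. Ssr4, its delta subunit, was at 393, 363 and 359 TPM in induced libraries, against 349, 345 and 284 TPM in basal libraries. The groups did not overlap, but the gap between the lowest induced and the highest basal library was small beside the spread of each group. The log2 difference was 0.19, with an interval of -0.12 to 0.50 and a limma adjusted p of 0.585 without the block and 0.129 with it. Ssr1, the alpha subunit, was at 31.8, 28.2 and 15.3 TPM in induced and 34.2, 27.1 and 18.5 TPM in basal libraries, and Ssr3, the gamma subunit, at 257, 218 and 103 TPM in induced and 229, 178 and 112 TPM in basal libraries. Their log2 differences were -0.10 and 0.11, and the libraries numbered 3 were again the lowest of each group. Ssr2, the beta subunit, was at 286, 289 and 214 TPM in induced and 266, 249 and 210 TPM in basal libraries, a log2 difference of 0.11 with overlapping groups.

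In signal peptidase the gene called with the block whatever column number was left out was Sec11c, 1 of its alternative catalytic subunits. Sec11c was at 250, 244 and 178 TPM in induced 1, 2 and 3, against 170, 172 and 146 TPM in basal 1, 2 and 3. All induced libraries were above all basal libraries, although induced 3 was above basal 2 by a small margin, and the means were 224 ± 40.3 TPM in induced and 163 ± 14.6 TPM in basal libraries (SD, n = 3 each), 1.38-fold. The log2 difference was 0.44 (SE 0.17, interval 0.04 to 0.85), with a limma adjusted p of 0.283 without the block and 0.00826 with it. Sec11a, the other catalytic subunit, was at 158, 164 and 77.5 TPM in induced and 168, 115 and 82.2 TPM in basal libraries, a log2 difference of 0.11 with overlapping groups. The log2 ratio of Sec11c to Sec11a was 0.66, 0.58 and 1.20 in induced and 0.02, 0.58 and 0.83 in basal libraries, a difference of 0.33 with an exact permutation p of 0.5, so a shift between the paralogs was not detectable.

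Of the subunits that do not cut, Spcs2, which is thought to support the cleavage of signal sequences at the membrane, was at 74.5, 66.4 and 41.3 TPM in induced and 60.5, 50.3 and 32.9 TPM in basal libraries. The groups overlapped, but each induced library was above the basal library of the same number. Spcs2 averaged 60.7 ± 17.3 TPM in induced and 47.9 ± 14.0 TPM in basal libraries (SD, n = 3 each), and its log2 difference of 0.34 had an interval of -0.36 to 1.03 without the block and 0.13 to 0.54 with it. Without the block, that difference became 0.09 without basal 3, 0.17 without induced 1, 0.59 without induced 3 and 0.52 without basal 1. The limma adjusted p was 0.699 without the block and 0.0276 with it, and the call with the block was lost when any column number was left out. Spcs1 was at 225, 219 and 143 TPM in induced and 181, 182 and 146 TPM in basal libraries, and Spcs3, which cells need for cleavage, at 94.3, 78.6 and 33.1 TPM in induced and 93.9, 66.6 and 45.0 TPM in basal libraries. Their log2 differences were 0.18 and -0.06, neither was called in either fit, and both had overlapping groups.

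In oligosaccharyltransferase, Rpn1 (ribophorin I), which holds some membrane clients for glycosylation, was the 1 gene of 10 called with the block. It was called higher, as were 8.23% of all genes tested, so the count is near that share. Rpn1 was at 244, 245 and 219 TPM in induced 1, 2 and 3, against 209, 190 and 176 TPM in basal 1, 2 and 3. The groups did not overlap, with means of 236 ± 14.9 TPM in induced and 192 ± 16.4 TPM in basal libraries (SD, n = 3 each), 1.23-fold. The log2 difference was 0.30, with an interval of 0.12 to 0.48 with the block, and the limma adjusted p was 0.327 without the block and 0.0293 with it. The call with the block was lost when any column number was left out. The microRNA gene Mir6376 overlaps an exon of Rpn1 on the opposite strand.

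The catalytic subunits and the other shared subunits were not called. Stt3a, the catalytic subunit that works at the translocon as the chain enters, was at 122, 96.9 and 54.5 TPM in induced and 129, 95.3 and 59.3 TPM in basal libraries. Stt3b, the catalytic subunit that also acts on sites Stt3a skips, was at 158, 129 and 90.3 TPM in induced and 141, 121 and 96.0 TPM in basal libraries. Their log2 differences were -0.06 and 0.06, and the log2 ratio of Stt3b to Stt3a differed by 0.12 (exact permutation p = 0.5). Of the shared subunits, Rpn2 (ribophorin II) was at 460, 428 and 523 TPM in induced and 528, 432 and 527 TPM in basal libraries, a log2 difference of -0.07. Ddost was at 453, 412 and 397 TPM in induced and 417, 418 and 402 TPM in basal libraries, with a log2 difference of 0.03 and an interval of -0.24 to 0.29, among the narrowest of the 33. Dad1, named for the cell death that follows its loss, was at 357, 308 and 194 TPM in induced and 277, 276 and 208 TPM in basal libraries, a log2 difference of 0.14. For all of these the groups overlapped.

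The accessory subunits that mark each form of the enzyme did not differ beyond their spread either. Ostc and Krtcap2 belong to the Stt3a form and tie it to the translocon. Ostc was at 161, 148 and 65.6 TPM in induced and 142, 114 and 79.2 TPM in basal libraries, and Krtcap2 at 1022, 894 and 610 TPM in induced and 770, 836 and 657 TPM in basal libraries, with log2 differences of 0.10 and 0.13. Tusc3 and Magt1 are the alternative thioredoxin-like subunits of the Stt3b form. Tusc3 was at 176, 147 and 132 TPM in induced and 195, 163 and 154 TPM in basal libraries, each induced library below the basal library of the same number, a log2 difference of -0.17 and a limma adjusted p of 0.155 with the block. Magt1 was at 52.2, 49.7 and 26.1 TPM in induced and 48.1, 39.4 and 27.8 TPM in basal libraries, a log2 difference of 0.12, and the log2 ratio of Magt1 to Tusc3 differed by 0.30 (exact permutation p = 0.4).

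Further genes of the pathway were read from lists that hold none of the 33, and 0 genes of these 7 lists passed the limma test without the block. With the block, 5 of 23 genes for building the dolichol-linked sugar tree were called higher and 0 lower (Dpagt1, Alg1, Alg3, Alg8 and Mpdu1), against 8.23% higher and 14.0% lower over all genes tested. In that list 15 were positive, against 44.9% of all genes, and the median log2 difference was 0.20, against -0.04. Alg1, which adds the first mannose, was at 20.4, 18.4 and 21.6 TPM in induced and 9.98, 13.2 and 15.1 TPM in basal libraries, a log2 difference of 0.63 with a limma adjusted p of 0.164 without the block and 0.00893 with it. Alg3, a later mannosyltransferase, was at 86.7, 77.4 and 54.5 TPM in induced and 50.7, 55.0 and 40.1 TPM in basal libraries, a log2 difference of 0.56 with a limma adjusted p of 0.281 without the block and 0.00511 with it. The groups were apart for Alg1 and overlapped for Alg3. Of 15 genes of the ER membrane protein complex and the multipass translocon, which insert membrane proteins, 4 were called higher with the block and 0 lower (Emc2, Emc4, Emc9 and Tmem147), against the same 8.23% and 14.0% over all genes. Here 12 were positive, against 44.9% of all genes, with a median log2 difference of 0.17. Emc4 was at 122, 114 and 132 TPM in induced and 74.9, 71.2 and 97.1 TPM in basal libraries, a log2 difference of 0.60, and Emc9 at 19.1, 20.4 and 17.3 TPM in induced and 14.7, 10.3 and 13.5 TPM in basal libraries, a log2 difference of 0.54. Their groups did not overlap, and the limma adjusted p was 0.135 and 0.208 without the block and 0.00264 and 0.0241 with it.

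The remaining 5 lists held fewer calls with the block, again against 8.23% higher and 14.0% lower over all genes tested. Of 8 further SRP, translocon and oligosaccharyltransferase genes, Tram2, a paralog of Tram1, was called lower with the block. Tram2 was at 12.0, 8.86 and 11.5 TPM in induced and 25.0, 19.3 and 16.7 TPM in basal libraries, all induced below all basal, a log2 difference of -0.85 with a limma adjusted p of 0.107 without the block and 0.00275 with it. Tmem258, a small subunit of oligosaccharyltransferase, was at 430, 460 and 339 TPM in induced and 361, 387 and 329 TPM in basal libraries and was not called. Of 5 genes of the GPI transamidase, a complex that attaches lipid anchors in the ER, Pigu was called higher with the block. Pigu was at 102, 79.6 and 66.9 TPM in induced and 71.0, 59.6 and 53.4 TPM in basal libraries, with overlapping groups. The log2 difference of Pigu was 0.42, with a limma adjusted p of 0.387 without the block and 0.0119 with it. Pigk, the catalytic subunit of the complex, had a log2 difference of 0.29 and was not called. The 13 genes of N-glycan trimming and quality control (6 positive, median -0.01), the 6 of tail-anchored protein insertion (5 positive, median 0.11) and the 3 of the nascent chain associated complex (3 positive, median 0.11) had 0 calls in either fit. Those with the smallest p there were Calr and Mogs (log2 differences 0.19 and 0.14), Bag6 and Sgta (-0.20 and 0.14), and Naca and Btf3 (0.21 and 0.05). Srp54b was above 0 in a single library, at 0.022 TPM, and was not tested, and reads of the near-identical Srp54a, Srp54b and Srp54c could be shared between them.

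The authors' own deposited tables listed few of the 33. The authors' deposited table from Cuffdiff, with 1548 genes, held 3 of them: Sec61b at 156 FPKM in induced and 89.8 FPKM in basal cells with a log2 fold change of 0.79 and a q-value of 4.1e-04, Sec61g at 179 FPKM in induced and 127 FPKM in basal cells with 0.49 and 0.0168, and Sec11c at 116 FPKM in induced and 82.3 FPKM in basal cells with 0.49 and 0.0188. The authors' deposited table from DESeq2, with 195 genes, held Sec61b, with a log2 fold change of 1.19 and an adjusted p of 7.0e-15. The authors' deposited table from limma, with 146 genes, held 0. These tables were made from the same libraries and are not a separate test.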

How the data were processed

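Per the labels' protocols, RNA came from dense wells and all libraries, made with an amplicon kit (AmpliSeq Library PLUS), shared 1 lane. With such a kit the level of 1 gene cannot be set against that of another, so a ratio of 2 genes is used only for how it differs between libraries. Tools the authors used, per the submitters' processing notes, were limma and DESeq2, Cuffdiff 2.2.0 and Cufflinks 2.2.0, TopHat2 2.0.9 and Bowtie2 2.1.0.0, with the build mm10. Their settings and gene annotation are not given in these sources. The name of the deposited main sheet says FPKM, but every library in it adds up to 1000000, which makes the deposited values TPM. Depth is unknown from them. The deposited sheet's ratio and log2 columns served only to find the scale the authors gave each library. The authors' deposited tables give, per the file headers, FPKM, log2 fold changes, p-values, a B score and, for Cuffdiff, a q-value. Columns name a group and a number where the labels have letters, and each column was therefore tied to a group and to no single sample. Of the listed genes, 6551 were at 0 in all libraries, and 27 had names turned into dates and are not named.

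Genes whose mean over the libraries reached 1 TPM were tested on the log2(TPM + 1) scale with limma 3.58.1 (R 4.3.3, eBayes with a trend), and p-values were adjusted by Benjamini-Hochberg over the 12400 genes, at a threshold of 0.05. Folds are ratios of mean TPM, and the added 1 understates the change of low genes. Scripts were tested on simulated data. The 33 genes, the further lists and the tests were chosen with earlier results of these data known. All 33 are named, and of each further list the genes past the threshold or, where there were none, the 2 with the smallest p; genes of those lists that were called with the block were added after their values were seen. Deviations from the group means correlated between libraries of the same number at 0.46, 0.18 and 0.72 over the genes tested. All are above 0.1, the rule under which the block was run, although no label ties the numbers. Libraries of unlike number also passed it, basal 1 with induced 2 at 0.32 and basal 2 with induced 1 at 0.28. Basal 2 correlated less with induced 2 than with induced 1. The rule therefore could not tell whether numbers 1 and 2 pair as named, and the calls with the block depend on that pairing. Alternatives were other pseudocounts, filters and scales, other moderation, library weights, the block, leaving out each library or both numbered 3, and, chosen after seeing the data, the block with each number left out. No fit of raw counts could be run on TPM. Promoters are RefSeq's, and GC content and positions come from GENCODE vM21.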

Additional observations from a re-analysis of the deposited data

How the results depend on the processing

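Without the block 148 genes were called. The count was 93 with a filter at a mean of 5 TPM, 96 on the authors' scale per library, 2476 with the offset of the authors' deposited table from DESeq2, 3500 with library weights (whose estimate stopped before it converged), 2761 with the replicate block, 986 without the libraries numbered 3, and between 0 and 277 when 1 library was left out. Of the 33 genes, 0 were called without the block, 1 (Sec61b) with a pseudocount of 5 or rescaling by the median ratio, 9 with the DESeq2 offset, 7 with library weights, 6 with the replicate block, 3 without the libraries numbered 3, and between 0 and 1 when 1 library was left out. With the replicate block and column number 1, 2 or 3 left out of both groups, an alternative chosen after seeing the data, 1907, 1943 and 1899 genes were called, and 3 of the 33 each time; Spcs2, Rpn1 and Srp72 were the calls lost. The replicate block changed the call of no other of the 33. The number of the 33 with a positive difference lay between 12 and 29 when 1 library was left out. The 6 genes whose groups did not overlap became 3 on the authors' scale and 14 with the DESeq2 offset. That count was not made over all genes on these scales, so whether the change is particular to the 33 is not known. The log2 difference of Pam lay between 1.99 and 2.48 when 1 library was left out. Fits without 1 library leave 5 values, and fits of TPM carry no depth, so small differences in the 33 genes were not resolved in either direction. The causes of these changes were not tested.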
